A study of Mus musculus with 14 samples.

Results

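The regions described here are 557 genomic bins of 10 kb that were anchors of called chromatin loops in both mouse embryonic stem cells (ESCs) and neural precursor cells (NPCs) and that the deposited lists mark as holding an H3K4me3 peak in the NPCs only. The bins were chosen by these flags: a bin was taken when it was an anchor in at least 1 ESC list and at least 1 NPC list of the loop caller MAPS and its peak flag was 0 in the ESC lists and 1 in the NPC lists. They were 557 of 36441 bins anchored in both cell types (1.53%), of 75103 anchor bins in all. The other anchors of both cell types were 13146 bins marked in both, 1964 marked in ESCs only and 20774 marked in neither. Since the flags chose the bins, the change of flag is not a result, and the flag carries no score, so no bin can be placed close to a threshold. The bins lay on all 19 autosomes present in the lists, at 0.944% to 2.36% of the shared anchors of each chromosome.

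The data are H3K4me3 PLAC-seq, an assay that joins DNA pieces lying close together in the nucleus, pulls down chromatin carrying a histone mark and sequences the joined pieces. All 4 groups were F123 mouse cells labelled CTCF-AID, in which CTCF carries an auxin-inducible degron tag and is depleted by auxin. ESCs were taken without auxin (0 h, called ESC control) or after 48 h of it (ESC auxin). NPCs were taken on day 4 of neural differentiation, without auxin (NPC control) or with it (NPC auxin). Auxin was a 500 mM stock, of which 1 µl went into each ml of culture medium, and each group had 2 samples. Values for the 4 lists are given below in the order ESC control, ESC auxin, NPC control, NPC auxin unless said otherwise. Each caller deposited 1 list per group, so there is no replicate spread, no test between groups can be made, and every interval below is an exact Clopper-Pearson 95% interval that covers counting error only and treats loops sharing an anchor as independent. Controls carry the degron too, and no source used here says whether the line is 1 clone; 6 samples of 3 dCas9 groups were not analysed here.

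H3K4me3 is laid down around the start sites of active and poised genes, most strongly at promoters rich in CpG dinucleotides. CTCF is a zinc-finger protein that halts loop extrusion by cohesin and sits at many loop anchors and domain borders. PLAC-seq lists keep bin pairs with a peak in at least 1 of their 2 anchors. A bin without a peak in ESCs can therefore be listed there only through a marked partner, while the same bin in NPCs can be listed with any partner. The MAPS lists held 56714 (ESC control), 27610 (ESC auxin), 82861 (NPC control) and 41667 (NPC auxin) loops, each with at least 12 contacts over 20 to 1000 kb. Expression was not measured in these lists: the 7 marker genes of ESCs and the 7 of NPCs were at marked bins alike, 6 of each set in the ESC lists and 6 of each in the NPC lists, as were 8 of 8 genes of other lineages, so the flags do not separate the cell types at these genes.

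Protein-coding promoters were few in these bins, and those present were mostly poor in CpG. The 4 stretches below are the 250 bases before the start site, read 5′ to 3′ on the gene's strand, from RefSeq (GRCm38.p6), with every CpG in capitals. They show Odf3, whose bin had the most loops of the members with a promoter, and Cyp26b1, which had more loops in NPC control than in its other lists. Also shown are the immune GTPase gene Irgm1 and the single CpG-rich promoter found in any member, that of 1700018B08Rik.
Odf3 (chr7:140847666-140847915, plus strand): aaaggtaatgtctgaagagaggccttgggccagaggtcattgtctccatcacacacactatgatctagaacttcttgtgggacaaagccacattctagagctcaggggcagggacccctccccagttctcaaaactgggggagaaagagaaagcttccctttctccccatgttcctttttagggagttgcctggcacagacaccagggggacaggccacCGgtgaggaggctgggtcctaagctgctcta
Cyp26b1 (chr6:84593811-84594060, minus strand): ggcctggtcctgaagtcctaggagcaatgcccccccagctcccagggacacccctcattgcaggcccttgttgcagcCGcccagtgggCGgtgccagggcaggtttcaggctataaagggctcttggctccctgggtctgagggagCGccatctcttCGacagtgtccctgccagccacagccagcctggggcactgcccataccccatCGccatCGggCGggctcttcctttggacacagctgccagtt
Irgm1 (chr11:48871421-48871670, minus strand): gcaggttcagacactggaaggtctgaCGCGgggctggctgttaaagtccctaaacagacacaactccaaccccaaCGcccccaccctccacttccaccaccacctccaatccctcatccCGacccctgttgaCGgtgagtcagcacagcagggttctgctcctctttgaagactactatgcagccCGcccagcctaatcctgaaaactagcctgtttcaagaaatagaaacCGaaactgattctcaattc
1700018B08Rik (chr8:121541955-121542204, minus strand): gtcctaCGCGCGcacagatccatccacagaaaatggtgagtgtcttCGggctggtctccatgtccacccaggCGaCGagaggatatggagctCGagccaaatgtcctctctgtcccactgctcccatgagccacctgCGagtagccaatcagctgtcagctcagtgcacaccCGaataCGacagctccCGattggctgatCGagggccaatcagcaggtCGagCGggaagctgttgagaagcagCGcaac
These hold 1, 7, 7 and 15 CpG, and their observed-over-expected CpG ratios were 0.056, 0.27, 0.43 and 0.71.

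Promoters were scarce in the 557 bins: 35 (6.28%, 4.42% to 8.63%) held the start of a protein-coding gene. That share was 49.98% of bins marked in both cell types, 7.54% of those marked in ESCs only and 2.95% of those marked in neither. A start lay in the bin or a neighbouring bin for 181 members (32.5%), and 299 (53.7%) overlapped a gene body. The median distance to the nearest start was 15.4 kb. In the RefSeq promoter table, 41 start sites of 36 genes fell in member bins, with a median CpG ratio of 0.27, beside 0.73 for 8697 promoters in bins marked in both and 0.53 for all 21263 promoters. Of the 41, 1 was CpG-rich by a ratio over 0.6 with a GC content over 50% (2.44%), beside 63.0% in bins marked in both and 41.2% of all promoters. The motif TATAAA, searched on both strands, was in 5 of the 41 (12.2%; Gpr65, Gstm7, Ahcyl2, Cyp26b1, Ceacam9), against 11.6% of all promoters. Bins marked in ESCs only had promoters with a median ratio of 0.23 and those marked in neither 0.20, so the low CpG content was shared by every class except the bins marked in both.

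**Figure D1:**
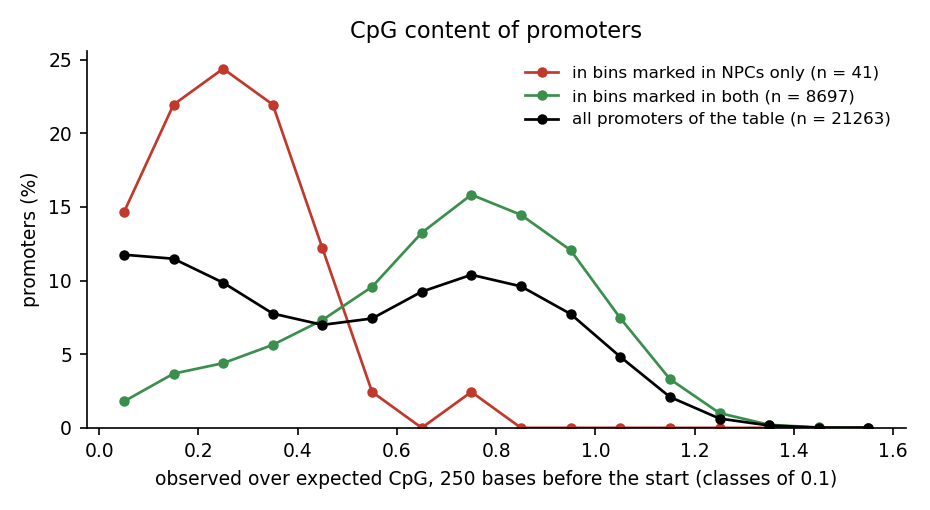
Share of promoters (y, percent) by observed-over-expected CpG in the 250 bases before the start (x, classes of 0.1), for 41 promoters in bins marked in NPCs only, 8697 in bins marked in both cell types and all 21263 promoters of the RefSeq table. The promoters in bins marked in NPCs only gather at low ratios around their median of 0.27, and those in bins marked in both around 0.73.

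The read level at these bins lay between those of unmarked bins and of bins marked in both, closer to the former. Each MAPS line gives the short-range reads of its anchors, read here as the captured H3K4me3-bearing chromatin at the bin itself. The members' medians were 198, 260, 291 and 332 reads. Bins marked in neither had 153, 216, 220 and 257 reads and bins marked in both had 305, 389, 635 and 703. Members thus lay 1.32 times above the unmarked bins in NPC control, where bins marked in both lay 2.89 times above them. From ESC control to NPC control, the reads were higher by a median of 0.54 on the log2 scale in the 454 members with a value in both lists, against 0.52 in bins marked in neither, 0.32 in bins marked in ESCs only and 0.98 in bins marked in both. In 22 of the 454 (4.85%) the change exceeded the 97.5th percentile of the bins marked in neither, which 2.50% of those bins exceed by definition. That share was 0.59% of bins marked in ESCs only, 45.8% of bins marked in both and 18.5% of all 31070 bins. The reads covering each anchor in the lists of a different caller, FitHiChIP, gave medians of 0.04 for 168 members, 0.08 for bins marked in neither and 0.42 for bins marked in both. The members' median lay slightly above that of bins marked in neither in MAPS and slightly below it in FitHiChIP, and below that of bins marked in both in each. The bins are called here by their flag: marked in NPCs only.

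**Figure D2:**
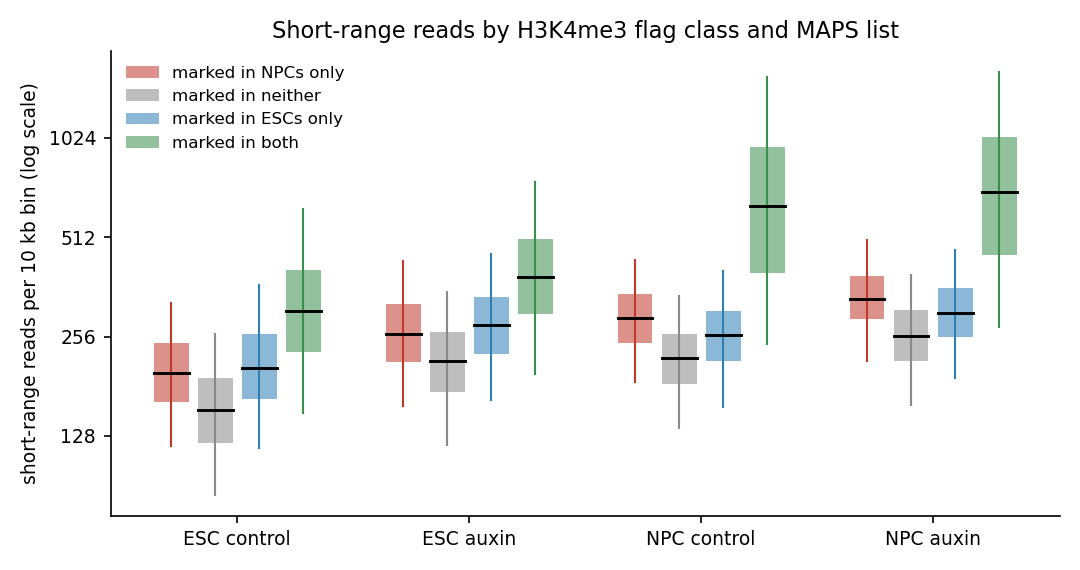
Short-range reads per 10 kb bin (y, log scale) in the 4 MAPS lists (x) for the 4 flag classes; boxes span the quartiles, black lines the medians and whiskers the 5th to 95th percentiles. Bins marked in NPCs only sit slightly above those marked in neither in every list, while bins marked in both reach a median of 635 reads in NPC control.

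Single bins stood out from this pattern, chosen here after their values were seen. The bin at chr9:123930001-123940000, near the chemokine receptor gene Ccr1, had 1618, 2082, 3539 and 3295 short-range reads, the highest of all members in each list, although its flag is 0 in ESCs. The bin at chr19:37700001-37710000 in the body of Cyp26a1, whose product breaks down retinoic acid, had no listed value in ESC control, then 314, 770 and 843 reads. It had 0, 1, 13 and 14 loops, so its loops and reads were both high in the NPC lists. The bin at chr12:112500001-112510000 in the body of Tmem179 had 658, 818, 836 and 971 reads and 5, 6, 15 and 16 loops, with Kif26a and Aspg among its partners in each list. In NPC control, 3 of 529 members with a value (0.567%) lay above the median of bins marked in both.

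The neighbourhood of the bins was also rich in marked chromatin in ESCs. An adjacent bin was marked in the ESC lists for 293 of the 557 (52.6%), close to the 55.6% of bins marked in both and above the 35.0% of bins marked in neither. Members with and without such a neighbour had similar values: 5.31 and 4.92 loops per bin in NPC control, and reads higher in NPC control than in ESC control by 0.49 and 0.57 on the log2 scale. GC content was 0.462 at the median, between 0.449 for bins marked in neither and 0.474 for bins marked in both.

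Loops at the bins were most numerous in the NPC control list. The MAPS lists held 1031, 590, 2829 and 1453 loops at members, which is 1.85, 1.06, 5.13 and 2.64 loop ends per bin. At least 1 loop was listed at 472, 330, 529 and 423 of the bins, and 205 had a loop in every list. Loops were unevenly spread: 83 bins had at least 10 in NPC control and 3 had at least 10 in ESC control, while 163 had 1 or 2 in NPC control. FitHiChIP listed fewer, at 261, 105, 1418 and 676. Their anchors in MAPS lay a median of 230, 260, 240 and 290 kb apart.

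The partners differed between the cell types in the way the lists are built. In ESC control, 866 loop ends met a partner marked in both cell types, 152 a partner marked in ESCs only and 13 a partner that was an anchor in 1 cell type only. In NPC control, 1154 met a partner marked in both, 142 one marked in ESCs only, 55 another bin marked in NPCs only, 980 a partner marked in neither and 525 a partner that was an anchor in 1 cell type only. Of the 2560 loops found only in NPC lists, 1193 (46.6%) had a partner unmarked in ESCs, a pair the ESC lists cannot hold, 677 (26.4%) had a partner absent from the ESC lists and 690 (26.95%) had a partner marked in ESCs.

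**Figure D3:**
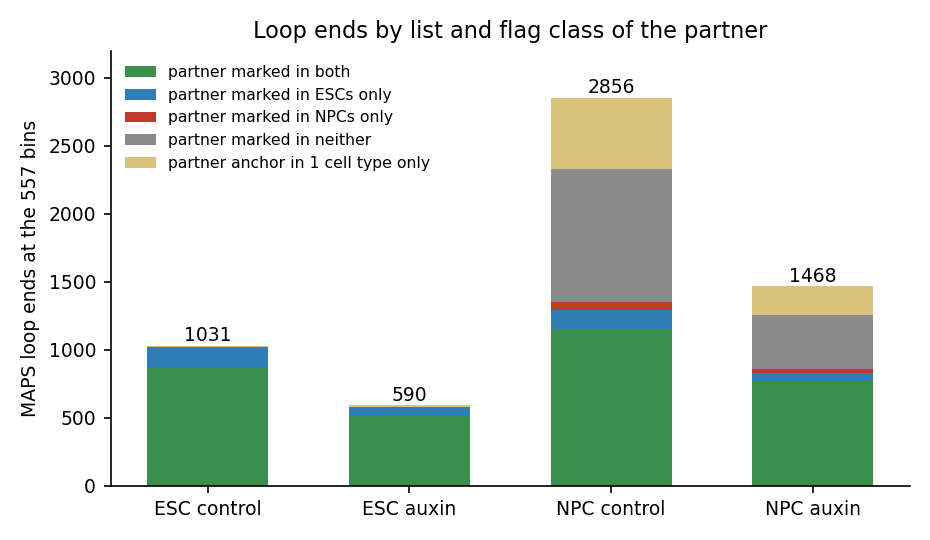
MAPS loop ends at the 557 bins (y) in the 4 lists (x), stacked by the flag class of the partner, with the total above each bar. The partners marked in both make up most of both ESC bars, and partners marked in neither add 980 ends to the NPC control bar.

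Comparing the cell types over partners marked in both removes the pairs that the ESC lists cannot hold. Over all partners, members had 2.77 times as many loop ends in NPC control as in ESC control, against 1.29 times over all bins anchored in both cell types. Over partners marked in both, the ratio was 1.33 for members, with 866 and 1154 ends, against 1.25 for bins marked in both, 1.22 for those marked in neither, 1.13 for those marked in ESCs only and 1.23 for all. With auxin in both cell types it was 1.51 for members, with 509 and 769 ends, against 1.28 for all. By bin, 255 members (45.8%, 41.6% to 50.02%) had more such loops in NPC control, 101 had fewer and 201 had the same number, while 39.0% of all bins had more. In the FitHiChIP lists the members' ratio over such partners was 4.61, with 216 ends in ESC control and 995 in NPC control. There, bins marked in both had 22089 and 30241 such ends and bins marked in neither 6133 and 9646. Bins marked in ESCs only went the other way, with 2592 and 861. The flag chose these classes, so nothing is read from the directions. The count that FitHiChIP expects for a pair also differed at the loops shared by its control lists. Its median log2 ratio, NPC over ESC, was -0.58 for members, 0.77 for bins marked in ESCs only and 0.38 over all. The part of the expected count was not tested. In MAPS, 25 members had at least 10 loops with partners marked in both over the control lists. Of these, 0 were at least 2-fold higher relative to the totals of all bins, against 2.52% of all 1426 bins so measured. At least 2-fold lower was 1 member, against 4.77% of all. The same pair counts 1 marked anchor in the ESC lists and 2 in the NPC lists for these bins, and its part in the ratio was not tested.

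Most loops that the bins had in ESC control were listed again in NPC control. Of 1031, 693 (67.2%, 64.3% to 70.1%) were called again between the same 2 bins. Over partners marked in both, the share was 69.3% (66.1% to 72.3%) for members, 67.3% (66.8% to 67.8%) for bins marked in neither, 61.1% (60.2% to 62.1%) for bins marked in both and 60.3% (58.5% to 61.9%) for bins marked in ESCs only. Every class here was kept only where its bins were anchors in an NPC list, which raises this share by selection, most for bins with few loops. Of the members, 213 had 1 ESC loop, so the order of the classes is not read as a difference between them. Across all lists, 1313 member loops were in an ESC list, 903 of these (68.8%, 66.2% to 71.3%) also in an NPC list, and 170 loops at 117 bins were in every list.

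The contacts at the 693 shared loops were on balance as many in NPC control as in ESC control, at a median of 29 in each. The log2 ratio had a median of 0.00 (quartiles -0.34 and 0.42), below the 0.19 over all 28547 shared loops. Of the 693, 268 (38.7%, 35.0% to 42.4%) exceeded that overall median. Bins marked in ESCs only had the same median of 0.00 in MAPS. In FitHiChIP the medians were 0.04 for members, 0.32 for bins marked in ESCs only and 0.30 over all shared loops, so the low ratio of the ESC-only class was seen in MAPS and not in FitHiChIP. When each count was divided by the count that MAPS expects for the pair, the median was 0.13 for members and 0.11 over all shared loops. Division by the count that FitHiChIP expects gave 0.66 for members, -0.47 for bins marked in ESCs only and -0.02 over all shared loops. The 2 callers thus differed after this division.

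Auxin in NPCs left fewer loops at most of the bins. Loops were fewer at 416 members, more at 81 and as many at 60, in a list that held 41667 loops with auxin and 82861 without. Of 2829 NPC control loops, 819 (29.0%, 27.3% to 30.7%) were called again with auxin, beside 27.02% over all loops. Over partners marked in both, 42.9% (40.0% to 45.8%) were called again, beside 40.7% (39.8% to 41.5%) for bins marked in both, whose pairs also have 2 marked anchors, 30.3% for bins marked in neither and 29.1% for bins marked in ESCs only. The difference from bins marked in both was within counting error. When an anchor 1 bin away was also accepted, 56.9% of the members' loops were called again. At the 819 loops, the median contact count was 27 without auxin and 25 with it, a median log2 ratio of -0.09 against -0.07 over all.

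Per bin, the change is log2 of (auxin loops + 1) over (control loops + 1) minus the same log2 ratio of the totals of both lists. Because 1 is added to each count and the auxin list is smaller, a bin that kept exact pace with its list lies slightly above 0. At least 10 loops over both lists were asked for. Among the 152 members with enough loops, 11 (7.24%) were at least 2-fold lower than their list, where 11.4% of all 5361 bins were. 14 (9.21%) were at least 2-fold higher, where 15.1% of all were. Both shares lay below those of all bins. The median change was 0.24, against 0.31 over all bins and 0.25 in bins marked in both. The shares rest on 11 and 14 bins, so nothing particular to the members is read from them. In FitHiChIP, 45 members had enough loops, of which 4 (8.89%) were lower and 2 (4.44%) higher, where 8.43% and 12.7% of all 2942 bins were. Asking for at least 5 MAPS loops gave 334 members, of which 42 (12.6%) were lower and 44 (13.2%) higher, where 13.6% and 17% of all 12776 bins were. In absolute numbers, 129 of the 152 had fewer loops with auxin, 14 had more and 9 had the same. Most of all 5361 bins also had fewer: 4234 had fewer, 811 had more and 316 had the same.

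**Figure D4:**
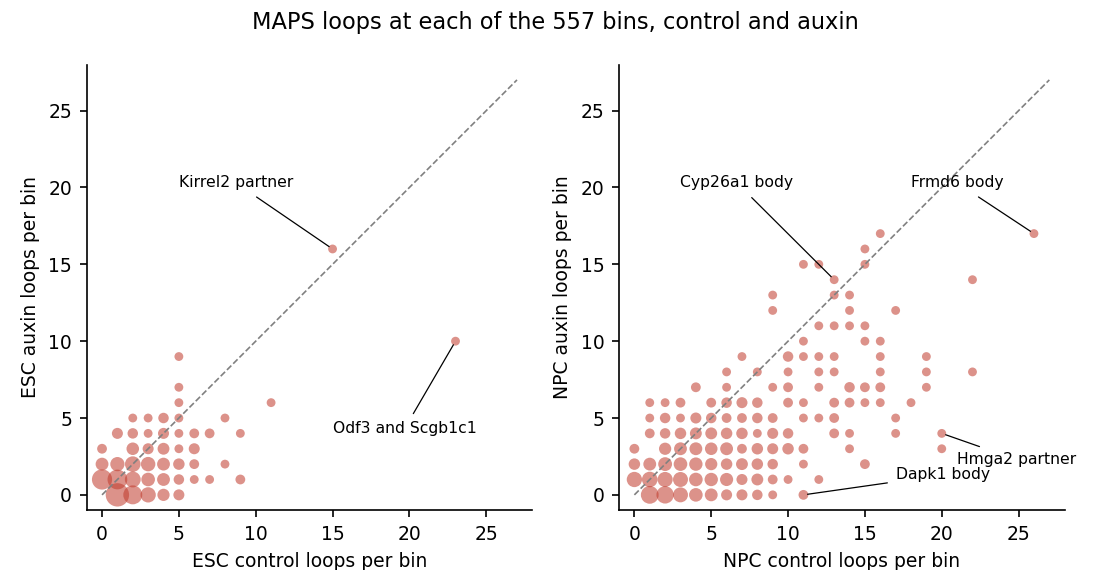
MAPS loops at each of the 557 bins in control (x) and auxin (y) lists, for ESCs (left) and NPCs (right); larger points hold more bins and the dashed line marks equal numbers. Most NPC points lie below the line, among them the Frmd6 body bin at 26 and 17 loops, and 2 bins have 11 loops without auxin and 0 with it.

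The bins at the ends of this range were chosen after their values were seen. The bin at chr13:60730001-60740000 in the body of Dapk1, a kinase gene of cell death, had 1, 0, 11 and 0 loops; its partners held the start of Dapk1 and, in NPC control, Gas1, which encodes a membrane protein that binds Hedgehog ligands. The bin at chr7:123200001-123210000, near the transporter gene Slc5a11, had 5, 0, 11 and 0 loops, among its partners Aqp8 and Arhgap17. The bin at chr10:94960001-94970000, near the semaphorin receptor gene Plxnc1, had 4, 0, 20 and 3 loops. The bin at chr10:120690001-120700000 had 9, 1, 20 and 4 loops, and Hmga2, which encodes a chromatin protein of early development, lay among its partners in every list. These 4 were low in both auxin lists, with 0 to 4 loops. In the NPC lists, loops with auxin outnumbered those without at the bin chr17:47030001-47040000, near Ubr2, with 2, 4, 11 and 15. The same held at chr1:182980001-182990000, near Tlr5, with 4, 2, 16 and 17. In the ESC lists, the Ubr2 bin had more loops with auxin and the Tlr5 bin fewer. The Hedgehog release gene Disp1 lay among the partners of the latter in both NPC lists and in ESC control. The most loops in NPC control were at chr12:70900001-70910000 in the body of Frmd6, with 3, 3, 26 and 17.

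Auxin in ESCs also left fewer loops at most of the bins. Of 1031 ESC control loops, 308 (29.9%, 27.1% to 32.8%) were called again with auxin, against 22.9% over all loops, and 56.1% with anchors accepted 1 bin away. Over partners marked in both, the share was 30.3% (27.2% to 33.4%) for members and 22.5% (22.0% to 23.0%) for bins marked in neither, whose pairs likewise have 1 marked anchor in ESCs. The members' 42.9% in NPCs is not set against this share, since the same pairs have 2 marked anchors there. Bins with a mark in ESCs had 35.9% (marked in both) and 30.2% (marked in ESCs only). In MAPS the members' interval thus lay above that of bins marked in neither, though both intervals treat loops sharing an anchor as independent. In FitHiChIP, over the same partners, 44 of 216 loops were called again for members and 1033 of 6133 for bins marked in neither. The members' read level in MAPS was 1.29 times that of bins marked in neither in ESC control, and its part in the difference was not tested. In the FitHiChIP lists, 20.3% of the members' loops were called again in ESC auxin and 31.2% in NPC auxin. Over all FitHiChIP loops, 14509 of 33475 were called again in ESC auxin and 16052 of 44892 in NPC auxin. Members thus lay below all loops in FitHiChIP and above them in MAPS. In MAPS, 16 members had at least 10 loops over both ESC lists: 2 were at least 2-fold lower than the list (10.4% of all 3803 bins) and 5 at least 2-fold higher (22.6% of all). In FitHiChIP 2 members had enough loops and neither was called, where 7.1% of all 2084 bins were lower and 6.72% higher. Loops were fewer at 333 of the 557, more at 125 and equal at 99, in a list that held 27610 loops with auxin and 56714 without. Among bins with at least 10 loops over both ESC lists, 11 of the 16 members had fewer with auxin. Of all 3803 such bins, 2946 had fewer, 583 had more and 274 had the same, so the fall is not particular to the members.

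**Figure D5:**
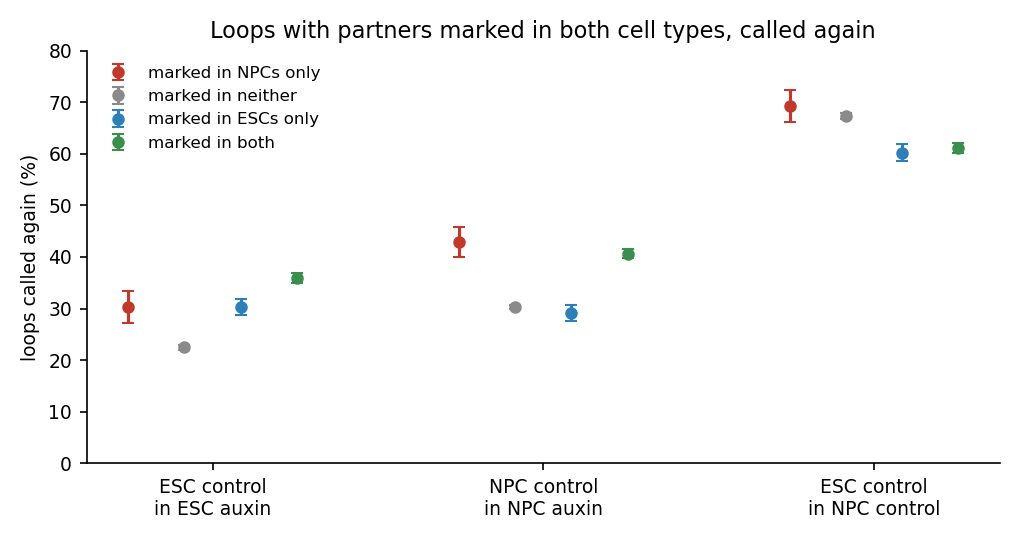
Share of control loops called again (y, percent, with exact 95% intervals) for loops with partners marked in both cell types, in 3 comparisons (x) and 4 flag classes. Bins marked in NPCs only reach 30.3%, 42.9% and 69.3%.

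Genes in the bins were a mixed set, and 10 gene-bearing bins with the most loops are given with their loops in the 4 lists. The bin chr7:140840001-140850000, with the starts of Odf3, a gene of sperm tail fibres, and Scgb1c1, a secretoglobin gene, had 23, 10, 22 and 14. Its partners included the interferon-induced Ifitm genes and Hras in both control lists, and Msx3 and Mtg1 in ESC auxin and NPC auxin. The loop with the most contacts spanned 60 kb in both control lists, with 146 and 84 contacts, and 210 kb in both auxin lists, with 46 and 44. The loop with the most contacts thus had the same span in lists of the same auxin treatment.

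Cyp26b1, which encodes a retinoic-acid-degrading enzyme, had 2, 3, 11 and 3 loops at its bin chr6:84590001-84600000, and 225, 342, 453 and 471 short-range reads. Its loops were most numerous in NPC control while its reads were high with and without auxin. Irgm1, a GTPase gene of innate immunity at chr11:48870001-48880000, had 3, 2, 16 and 10 loops, with Mgat1 among its partners in 3 of the 4 lists. The bin of 1700018B08Rik at chr8:121540001-121550000 had 7, 1, 9 and 4, and Foxc2, a forkhead gene of mesoderm, was a partner in every list. The neighbouring forkhead genes Foxf1 and Foxl1 were partners in 3 of the 4, all but ESC auxin. Golt1a, a Golgi transport gene at chr1:133300001-133310000, had 6, 2, 10 and 6 loops, with Snrpe as a partner in 3 lists. Slc23a3, of the ascorbate transporter family at chr1:75130001-75140000, had 0, 1, 6 and 8. In its NPC control loops the partners included Ihh, a Hedgehog ligand gene.

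Gp5, a platelet glycoprotein gene at chr16:30310001-30320000, and Caly, a gene of neuronal vesicle traffic at chr7:140080001-140090000, each had 4, 2, 5 and 6. Relative to the lists, NPC auxin was higher than control by 1.21 on the log2 scale at both and by 1.35 at Slc23a3, on 11 to 14 loops each. The 95% counting intervals spanned 0, from -0.72 to 3.31 at Gp5 and Caly and from -0.31 to 3.21 at Slc23a3. FitHiChIP gave 0.12 at Gp5, 0.27 at Caly and 0.85 at Slc23a3. At Cyp26b1 the change was -0.59 (-3.36 to 1.04). Gstm7, a glutathione transferase gene in a cluster of near-identical copies at chr3:107930001-107940000, where reads can be split between copies, had 2, 0, 7 and 5. The bin of 4930558K02Rik at chr1:161970001-161980000 had 1, 1, 8 and 3. Across the 10 bins, NPC control was above ESC control in 9, and the Odf3 bin was 1 lower. These counts include pairs that the ESC lists cannot hold. Over all partners, 78.5% of members and 43.2% of all bins anchored in both cell types had more loops in NPC control. Over partners marked in both, 45.8% and 39.0% had more, so nothing is read from the 9.

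Bins with the most ESC loops beside that of Odf3 held no gene start. At chr7:30330001-30340000 the loops numbered 15, 16, 15 and 15, nearly level across the lists, and the partners in every list included Kirrel2 and Nphs1, which encode adhesion proteins of the kidney filter. At chr5:146700001-146710000 there were 11, 6, 17 and 12, with the caudal homeobox gene Cdx2 a partner in every list and Pdx1, a pancreas homeobox gene, in both control lists. The bin chr11:101920001-101930000 had 5, 9, 7 and 9 loops, with Sost, a Wnt inhibitor gene, among the partners in all but NPC auxin and Etv4, a target of FGF signalling, in NPC control. The bin chr15:100470001-100480000, in the bodies of Letmd1 and Csrnp2 and 0.989 kb from the start of Letmd1, had 9, 4, 7 and 2. Auxin was followed by fewer loops at the second and the last of these and by as many or more at the others.

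Few genes of any kind started in the bins themselves. Of 21900 protein-coding genes, 57 (0.260%) had their start in a member, or an end where no strand is known. From 18 gene lists, the members held Cyp26b1 (retinoic acid, 1 of 15), Hnf4a (mesoderm and endoderm, 1 of 22) and Maml2 (Notch, 1 of 25). Hnf4a, a nuclear receptor gene of liver and gut, had 0, 1, 3 and 1 loops, and Maml2, which encodes a Notch coactivator, had 1, 0, 4 and 0. None of 36 neural progenitor genes, 28 neuron genes or 18 housekeeping genes started in a member, from which nothing is read at a share of 0.260% over all genes. Within 1 bin, the neural progenitor list had 2 of 36 (5.56%, Pax6 and Lhx2) and all genes 295 of 21900 (1.35%). Retinoic acid had 2 of 15 (13.3%), BMP and TGF-beta signalling 2 of 41 (4.88%) and the neuron list 0 of 28. Nothing particular to neural genes is read from counts this small.

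As partners, genes of all kinds were met more often than in the bins themselves. In NPC control, 854 of 21900 genes (3.90%) lay at a partner of a member, and in ESC control 558 (2.55%). For the neural progenitor list these were 5 of 36 (Sox1, Pax6, Zic2, Zic5 and Nr2f2; 13.9%) and 3 of 36 (Sox1, Pax6 and Zic2; 8.33%). The pluripotency list had 4 of 26 in NPC control (Nanog, Tbx3, Sall4 and Fbxo15; 15.4%) and 2 of 26 in ESC control (Tbx3 and Tdgf1; 7.69%). Counts for BMP and TGF-beta signalling were 6 of 41 (14.6%) and 4 of 41 (9.76%), for Hedgehog signalling 3 of 15 and 1 of 15, and for Wnt signalling 0 of 46 in both. Lists near or below the share of all genes in NPC control were the neuron list with 1 of 28 (Neurog2, 3.57%), cadherins and neural adhesion with 1 of 28 (Cdh22, 3.57%), FGF signalling with 1 of 30 (Etv4, 3.33%) and the housekeeping list with 0 of 18. Lists of so few hits carry wide counting error, and neighbouring genes share bins, so nothing particular to a list is read from these counts.

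The Hox genes of body-axis patterning had the highest share of the 18 lists, with 20 of 39 genes (51.3%) at a partner in NPC control and 19 (48.7%) in ESC control, but through few bins. In NPC control 3 members met the Hoxa cluster, 2 the Hoxb cluster and 3 the Hoxd cluster, and none met Hoxc. Members made 4, 3, 5 and 9 of the loops at the Hoxa genes, 5, 4, 10 and 7 of those at the Hoxb genes, and 7, 0, 10 and 6 of those at the Hoxd genes, in the order of the lists given above. Of these, the bin chr11:96610001-96620000 in the body of Skap1 met Hoxb genes in 4, 3, 8 and 7 loops. The bin chr2:74060001-74070000 met Hoxd genes in 4, 0, 5 and 2 loops, and chr2:74300001-74310000 in 2, 0, 3 and 0. The difference between the clusters was not tested. All loop ends at the Hoxd genes numbered 113, 36, 249 and 108, and those at the Hoxb genes 147, 105, 269 and 193. Both clusters had fewer with auxin in both cell types. The lists themselves held 56714, 27610, 82861 and 41667 loops. Relative to these totals, the ends at the Hoxd genes fell more and those at the Hoxb genes fell less. The members' loops were 6.19%, 0%, 4.02% and 5.56% of the ends at the Hoxd genes.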

How the data were processed

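H3K4me3 PLAC-seq lists of 4 groups (8 samples, 1 list per caller and group) were analysed. Per the submitters' processing notes, BWA, Picard and mm10 were used; versions, the source of the peak flags and whether samples were pooled are not given in the sources used here. Per the file headers, the MAPS lists hold contact counts and short-range read counts, an expected signal, the ratio of count to expected, a false discovery rate (a p-value type measure made by the authors' caller, under 0.01), GC as a fraction and peak flags. The FitHiChIP lists hold deposited contact counts, coverage counts, an expected signal and fraction, and q-values. All totals are those of the lists, not of libraries.

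Bins were classed by flags, which agreed in 100% of bins shared by both callers. Loops were matched by both bins. Shares, ratios and the per-bin log2 change (pseudocount 1, at least 10 loops) were computed with Python 3.11.15, pandas 2.3.3, NumPy 2.4.6 and SciPy 1.17.1; the code was tested on simulated data. MAPS was the main caller; FitHiChIP, a stricter FDR, looser matching of anchors and other thresholds were tried as alternatives. Genes and promoters came from RefSeq (GRCm38.p6, the assembly of mm10). Bins were named by rule: the 10 gene-bearing members with the most loops, the 5 lowest and 5 highest of gene-bearing members by NPC auxin change, the 5 with the most ESC loops, and members of the 18 lists; other named bins are said to be chosen after their values were seen. Members and lists were chosen with earlier results of these data known. The 6 dCas9 samples were not analysed here.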

Additional observations from a re-analysis of the deposited data

How the results depend on the processing

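No paired analysis was possible because each group is 1 list, and for the same reason no replicate could be left out. Among 53 alternatives, 17 stayed within 1.5 times a count or within the 95% interval of a share, and 36 did not. The bins numbered 264 without those next to a bin marked in ESCs and 180 without those within 2 bins. Under FitHiChIP the loops were 261, 105, 1418 and 676 in the 4 lists (ESC control, ESC auxin, NPC control, NPC auxin), the NPC to ESC ratio was 4.61, the shares called again were 31.2% (NPC auxin), 20.3% (ESC auxin) and 82.8% (ESC control in NPC control), 30.6% of shared loops exceeded the overall median count, 4 of 45 tested bins were lower and 2 higher in NPC auxin, and 0 and 0 of 2 in ESC auxin. At the 216 loops shared by its control lists, the log2 ratio of the FitHiChIP expected count (NPC over ESC) had a median of -0.58 for these bins and 0.38 over all shared loops; its part in the ratio was not tested. An FDR under 0.001 left 382 loops in ESC auxin and 896 in NPC auxin, a ratio of 1.495, 25.3% called again in NPC auxin, and 1 bin lower and 3 higher in ESC auxin. Matching anchors within 1 bin gave 56.9%, 56.1% and 86.8% called again. Over all partners the ratio was 2.77. Partners marked in both left 1154 and 769 NPC loops and, an alternative chosen after seeing the data, 42.9% called again in NPC auxin. Without bins next to a bin marked in ESCs, 7 bins were lower and 5 higher in NPC auxin, and 1 and 1 in ESC auxin; with at least 5 loops 42 and 44 of 334 were in NPC auxin. In MAPS, dividing by the expected count put 52.5% of shared loops above the overall median, against 38.7%. Starts within 1 bin were at 181 bins. The cause of these differences was not tested. At 23 single bins, all 69 changes in NPC auxin tried under FitHiChIP, the stricter FDR and a pseudocount of 0.5 stayed within the counting interval, which is wide at 10 to 43 loops per bin. The sign of the change turned at 7 of these bins under FitHiChIP, among them Odf3 (0.38 to -0.34), Irgm1 (0.36 to -0.56), Golt1a (0.34 to -0.56), Gstm7 (0.58 to -0.15) and chr5:146700001-146710000 (0.52 to -0.52), and at 2 under the stricter FDR. The depth of the libraries is not in the lists, and a loop missing from a list may lie just under its threshold.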

Other observations

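The rule applied to the FitHiChIP lists, which cover the X chromosome, gave 231 bins marked in NPCs only, of which 199 are among the 557. On X there were 3, in the bodies of Nudt11 and of Rhox6, a reproductive homeobox gene, and at the start of Rtl8b, a retrotransposon-derived gene, where the FitHiChIP loops were 1, 1, 4 and 3 in ESC control, ESC auxin, NPC control and NPC auxin. The MAPS lists held no X chromosome bins.

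The microRNA gene Mir3086 lies in the member bin chr19:58910001-58920000, in the body of Hspa12a. Its loops were 6, 2, 14 and 4 in ESC control, ESC auxin, NPC control and NPC auxin, and its partners included Vax1, a homeobox gene of the ventral forebrain and eye, in both control lists and in neither auxin list. The 2 mature forms, from RefSeq, are shown with the seed (bases 2 to 8) in capitals; no small RNA was measured.
mmu-miR-3086-5p: uAGAUUGUaggcccauugga
mmu-miR-3086-3p: cCCAAUGAgccuacagucuaag

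Beside the Hoxd cluster, the bin chr2:74640001-74650000, near the homeobox gene Evx2, had 1, 0, 18 and 6 loops, with Atp5g3 and Atf2 among its partners in both NPC lists. It was chosen after its values were seen.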
